A study of Homo sapiens with 6 samples.

Results

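Caspases are the proteases that carry out apoptosis, and the genes described here are 4 of them with 4 of the proteins that switch them on or hold them back. The 8 genes, CASP2, CASP6, CASP8, CASP9, APAF1, XIAP, DIABLO and CFLAR, were found by symbol among 58735 genes of an expression table. They occupy 9 rows, since DIABLO is listed as 2 gene models, and 7 of the 8 reached the mean level required for testing.

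All 6 libraries come from SW480, a human cell line established from a colorectal cancer, with the genotype WT in the labels. In 3 of them the cells had received a control siRNA without a target (si_NC), and in 3 they had received siRNA to ITGB4 (si_ITGB4), the gene of the integrin β4 subunit. Replicates 1 to 3 of each group are described in the series as biological replicates. A single cell line and, as far as the labels say, a single ITGB4 siRNA were used, and neither its sequence nor the time after transfection is given.

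Caspases are made as inactive precursors and are activated by cleavage or by being brought together on a platform. In the death receptor route, CASP8 is activated at the receptor, and CFLAR (c-FLIP), which resembles CASP8, competes with it there. In the mitochondrial route, cytochrome c released from mitochondria lets APAF1 assemble into the apoptosome that activates CASP9, XIAP blocks CASP9, and DIABLO (Smac) leaves the mitochondria and pulls XIAP off it. CASP6 is an effector caspase that cuts proteins such as nuclear lamins, and CASP2 is an initiator activated on a separate platform built from PIDD1 and CRADD. Epithelial cells that lose their attachment commonly die through these routes. RNA levels measure neither the amount of these proteins nor their cleavage.

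The inhibitor CFLAR differs from the protease members at the codon of the catalytic cysteine, among other codons, and DIABLO and CASP9 share a short motif that XIAP binds. These stretches of the coding strand are shown because they bear on the roles by which the genes are ordered below. They come from the principal coding transcripts of GENCODE release 29 (GRCh38), 30 bases each, 5′ to 3′. In the first 5 the capitals mark the codon of the catalytic cysteine, or in CFLAR the codon at the same place, and in the last 2 they mark the codons of the motif that binds XIAP.
CASP2: ttcatccaggccTGCcgtggagatgagact
CASP6: atcattcaggcaTGTcggggaaaccagcac
CASP8: tttattcaggctTGTcagggggataactac
CASP9: ttcatccaggccTGTggtggggagcagaaa
CFLAR: tttattcagaacTATgtggtgtcagagggc
DIABLO: gtaaccctgtgtGCGGTTCCTATTgcacag
CASP9: cccgagccagatGCCACCCCGTTCcaggaa

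The marked catalytic codons lie at chr7:143300285-143300287 (CASP2, exon 8, plus strand), chr4:109691004-109691006 (CASP6, exon 6, minus strand), chr2:201285091-201285093 (CASP8, exon 9, plus strand) and chr1:15504618-15504620 (CASP9, exon 6, minus strand). The active-site signature of caspases was found 1 time in the translated coding sequence of each of these 4 genes. It was found 0 times in CFLAR, APAF1, XIAP and DIABLO. In CFLAR the place was located from the 15 codons before the catalytic codon of CASP8, of which 12 encode the same residue, against 4 at the next best position. The codon found there, TAT, is not a codon for cysteine. That codon lies at chr2:201160716-201160718 in exon 9. The XIAP-binding motif lies at chr12:122224518-122224529 in exon 2 of DIABLO and at chr1:15495364-15495375 in exon 7 of CASP9, both on the minus strand.

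ITGB4 was measured first, as a check of the labels. It was at 74.3, 63.8 and 69.8 FPKM in the control libraries and at 41.1, 38.1 and 37.9 FPKM in the ITGB4 siRNA libraries. FPKM counts fragments scaled to gene length and library size. The groups did not overlap, and the log2 difference was -0.81 (SE 0.066, limma adjusted p = 0.0148). The call was lost without control replicate 3 (0.0996) or without ITGB4 siRNA replicate 1 (0.0709), 2 (0.137) or 3 (0.0968). Reads assigned to genes numbered 13715266 to 15496274 per library, recovered from the FPKM values and the gene lengths. Of 12871 genes with a mean of at least 1 FPKM, limma called 6 changed at an adjusted p under 0.05, or 0.0466%. Of 7 epithelial markers 5 averaged at least 1 FPKM, led by KRT18 (567 FPKM) and KRT8 (486 FPKM), while KRT20 (0.0237 FPKM) and VIL1 (0.706 FPKM), which mark differentiated enterocytes, did not. None of 14 fibroblast, endothelial and leukocyte markers averaged 1 FPKM, and COL1A2, COL3A1, DCN, LUM, CDH5 and KDR were listed at 0 in every library. Their summed levels ran from 0.426 to 0.805 FPKM (fibroblasts), 0.139 to 0.242 (endothelium) and 0.948 to 1.39 (leukocytes) with control siRNA, and from 0.407 to 0.566, 0.132 to 0.223 and 0.998 to 1.19 with ITGB4 siRNA.

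None of the 7 tested caspases and regulators was called changed. In each of the 8 genes the ITGB4 siRNA values overlapped the control values, where 11.1% of tested genes had groups that did not (5.75% higher and 5.36% lower with ITGB4 siRNA). Of the tested 7, CASP9 and APAF1 had a log2 difference above 0 and the other 5 had one below 0, with a range of -0.04 to 0.04 and a median of -0.005. Over all 12871 tested genes the median was -0.003. At an unadjusted p under 0.05 limma found 0 of the 7 members and limma-voom 0, where the shares over all tested genes were 5.83% and 5.66%. Limma-voom on the recovered reads also called 0 of the 7, against 0.21% of all tested genes. The 95% intervals of the 7 differences, in log2 of FPKM + 1, ran from -0.25 at the lowest (CFLAR) to 0.28 at the highest (CASP9). By limma-voom on the recovered reads, without a pseudocount of 1 FPKM, they ran from -0.27 (CASP6) to 0.37 (CASP9). These libraries hold RNA from whole cultures, so fewer cells of a kind and less RNA per cell cannot be told apart.

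**Figure D1:**
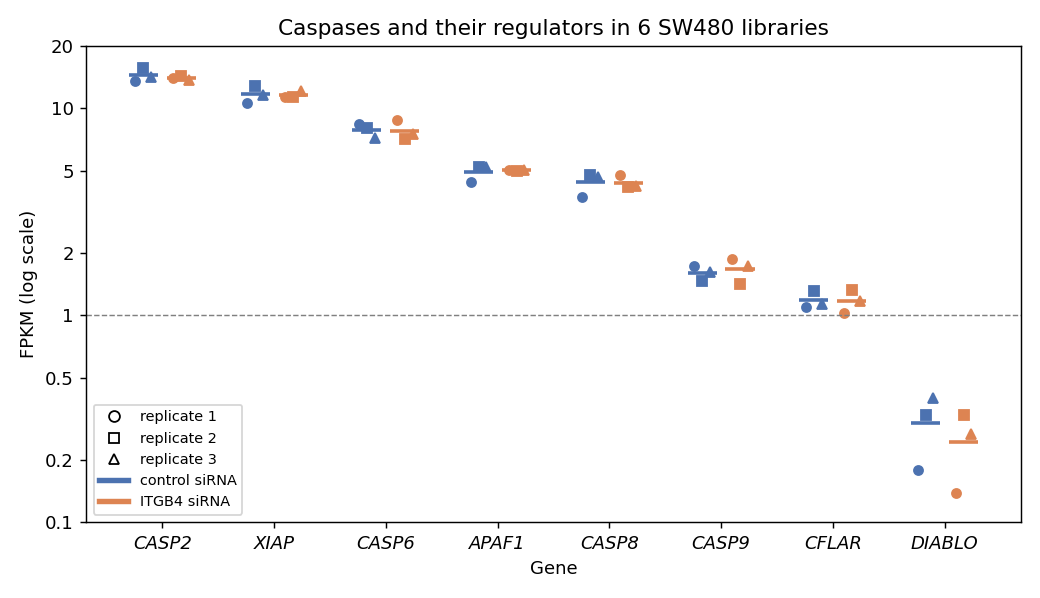
FPKM on a log scale for the 8 genes in 6 libraries; symbols give the replicate, horizontal bars the group mean (n = 3), and the dashed line the mean of 1 FPKM required for testing. The longer DIABLO gene model is drawn. Blue (control siRNA) and orange (ITGB4 siRNA) points overlap in every gene, and DIABLO lies below the line.

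CASP8, the initiator of the death receptor route, was at 3.74, 4.78 and 4.65 FPKM in control replicates 1, 2 and 3 and at 4.75, 4.16 and 4.21 FPKM in ITGB4 siRNA replicates 1, 2 and 3. Control replicate 1 was the lowest of all 6 libraries and control replicate 2 the highest, so the control values enclosed the ITGB4 siRNA values. The means were 4.39 ± 0.565 and 4.37 ± 0.33 FPKM (SD, n = 3 each). The difference of these means was -0.349%. In log2 of FPKM + 1 the difference was -0.000369, with a 95% interval of -0.22 to 0.22 (limma adjusted p = 1.0). CASP8 (ENSG00000064012) occupies 201233443 to 201287711 on the plus strand of chromosome 2 and was counted by 401 to 513 reads per library.

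CFLAR, the inhibitor at the same receptor complex, was at 1.10, 1.31 and 1.13 FPKM with control siRNA and at 1.02, 1.33 and 1.17 FPKM with ITGB4 siRNA. The lowest and the highest value were both in the ITGB4 siRNA group. The means were 1.18 ± 0.113 and 1.17 ± 0.154 FPKM (SD, n = 3 each), and the log2 difference of -0.005 had an interval of -0.25 to 0.24 (limma adjusted p = 0.998). At this level the added pseudocount of 1 FPKM compresses a difference. Limma-voom, which does not add 1 FPKM, gave a fold of 0.996 with an interval of 0.848 to 1.17. CFLAR (ENSG00000003402) lies at 201116104 to 201176687 on the plus strand of chromosome 2, the chromosome of CASP8.

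CFLAR, CASP10 and CASP8 stand next to each other there, with 6193 bases between CFLAR and CASP10 and 4036 bases between CASP10 and CASP8. CASP10, the other initiator caspase of death receptors, was at 0.169, 0.213 and 0.233 FPKM with control siRNA and at 0.266, 0.284 and 0.296 FPKM with ITGB4 siRNA. The groups did not overlap, as in 10.7% of genes with at least 10 reads, but each value rests on only 19 to 35 reads, and the gene was too low for the main test. Limma-voom over 21434 genes with at least 10 reads gave a log2 difference of 0.46 with an unadjusted p of 0.107 (adjusted p = 0.984). CASP10 is given here for its place beside the members and was picked with its values known.

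CASP9, the initiator of the mitochondrial route, was at 1.73, 1.46 and 1.62 FPKM with control siRNA and at 1.88, 1.42 and 1.73 FPKM with ITGB4 siRNA. Replicate 2 was the lowest library of each group and replicate 1 the highest. The means were 1.604 ± 0.137 and 1.675 ± 0.235 FPKM (SD, n = 3 each), a log2 difference of 0.04 (interval -0.20 to 0.28, limma adjusted p = 0.998). With 114 to 142 reads per library, counting alone gives a coefficient of variation of 8.82%, beside 8.52% observed among the control libraries and 14.1% among the ITGB4 siRNA libraries. The limma-voom interval, 0.834 to 1.29 as a fold, had the highest upper bound of the 7 tested members. CASP9 (ENSG00000132906) lies at 15490832 to 15526534 on the minus strand of chromosome 1.

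APAF1, which forms the apoptosome, was at 4.39, 5.22 and 5.20 FPKM with control siRNA and at 5.06, 4.96 and 5.05 FPKM with ITGB4 siRNA. Control replicate 1 alone lay below the ITGB4 siRNA values, while control replicates 2 and 3 lay above them. The spread was 4.94 ± 0.473 FPKM with control siRNA and 5.02 ± 0.0557 FPKM with ITGB4 siRNA (SD, n = 3 each), or 9.58% and 1.11% of the mean. The log2 difference was 0.02 (interval -0.15 to 0.19, limma adjusted p = 0.998). APAF1 (ENSG00000120868) lies at 98645141 to 98735433 on the plus strand of chromosome 12 and had 514 to 627 reads per library.

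XIAP, an inhibitor of CASP9, was at 10.65, 12.9 and 11.6 FPKM with control siRNA and at 11.4, 11.3 and 12.1 FPKM with ITGB4 siRNA. Control replicate 1 was again the lowest library and control replicate 2 the highest. The means were 11.7 ± 1.11 and 11.6 ± 0.461 FPKM (SD, n = 3 each), with a log2 difference of -0.008 (interval -0.18 to 0.17, limma adjusted p = 0.998). At 1422 to 1721 reads per library, counting accounts for a coefficient of variation of 2.52%. The observed values were 9.52% among control libraries and 3.97% among ITGB4 siRNA libraries. XIAP (ENSG00000101966) lies at 123859724 to 123913979 on the plus strand of the X chromosome, and XIAP-AS1 overlaps its locus on the other strand.

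DIABLO, the antagonist of XIAP, was listed at 0.180, 0.329 and 0.397 FPKM with control siRNA and at 0.139, 0.329 and 0.265 FPKM with ITGB4 siRNA for the longer gene model (ENSG00000184047). Replicate 1 was the lowest library of each group. These values stand for 18, 33 and 41 reads and 13, 34 and 28 reads. The shorter model (ENSG00000284934) had 1, 3 and 6 reads with control siRNA and 0, 2 and 6 reads with ITGB4 siRNA. Neither model reached the mean required for the main test. Over genes with at least 10 reads, limma-voom gave the longer model a fold of 0.816 with an interval of 0.491 to 1.36 (adjusted p = 0.99). The values spread by 36.9% and 39.6% of the mean, beside 19.0% from counting.

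The 2 DIABLO models lie over each other on the minus strand of chromosome 12, at 122207663 to 122226568 and 122207662 to 122227534. All of the 1471 bases (100%) of the principal DIABLO transcript fall in exons of another annotated gene on the same strand. In the 7 other members the share was 0%, except 3.03% in CFLAR. Only 14.7% of the exonic bases of the shorter model belong to no other gene on its strand. How reads from shared exons were counted is not given in the sources used here, and its part in the low DIABLO values was not tested. The DIABLO values are therefore given as listed and not as the level of the gene.

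CASP2, the initiator caspase of the PIDD1 platform, had the highest level of the members. It was at 13.5, 15.6 and 14.2 FPKM with control siRNA and at 13.9, 14.3 and 13.7 FPKM with ITGB4 siRNA. The ITGB4 siRNA values all fell inside the range of the control values. The means were 14.4 ± 1.05 and 14.0 ± 0.318 FPKM (SD, n = 3 each), a log2 difference of -0.04 (SE 0.061, interval -0.18 to 0.10, limma adjusted p = 0.998). On this scale 36.9% of all tested genes had a smaller difference. CASP2 (ENSG00000106144) lies at 143288215 to 143307696 on the plus strand of chromosome 7 and had 1549 to 1851 reads per library.

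CASP6, the effector caspase among the members, was at 8.42, 8.02 and 7.16 FPKM with control siRNA and at 8.73, 7.14 and 7.47 FPKM with ITGB4 siRNA. Replicate 1 was the highest library of each group. The means were 7.87 ± 0.643 and 7.78 ± 0.839 FPKM (SD, n = 3 each), and the log2 difference was -0.02 (interval -0.22 to 0.19, limma adjusted p = 0.998). CASP6 (ENSG00000138794) lies at 109688622 to 109703583 on the minus strand of chromosome 4. It overlaps MCUB on the other strand, and 94.6% of its exonic bases belong to no other gene on either strand. That share was 98.0% in CASP9, 90.5% in APAF1 and 88.0% in CFLAR. The labels do not state strandedness, so in all of these genes reads from the remainder cannot be assigned to a strand.

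Permuting the libraries exactly (two-sided, on mean FPKM) gave p = 0.7 for CASP2, 0.9 for CASP6 and CASP8, 0.8 for CASP9 and XIAP, and 1.0 for APAF1 and CFLAR. It gave 0.5 for the longer DIABLO model and 0.1 for ITGB4. With 3 against 3 libraries 0.1 is the smallest p it can give. These p-values do not show that the levels were equal. The intervals above give the size of difference, in log2 of FPKM + 1, that the libraries still allow. For members of low level the added 1 FPKM narrows them: limma-voom gave CASP9 a log2 interval of -0.26 to 0.37.

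Library by library, 4 of the 5 members whose gene models exceed 7000 bases had their extremes in the same control libraries, while in the ITGB4 siRNA libraries their deviations differed in sign. CASP2, CASP8, APAF1 and XIAP each had their lowest value in control replicate 1 and their highest in control replicate 2. Against the mean over the 6 libraries, control replicate 1 was at -0.07 (CASP2), -0.22 (CASP8), -0.18 (APAF1) and -0.13 (XIAP) in log2 FPKM. Control replicate 2 was at 0.13, 0.13, 0.07 and 0.15 for the same genes. CFLAR, the longest member, did not share these extremes: it was lowest in ITGB4 siRNA replicate 1 (-0.20) and highest in ITGB4 siRNA replicate 2 (0.18). CASP6, the shortest tested member at 1943 bases, was at 0.11 in control replicate 1. Among all 3066 tested protein-coding genes of at least 7000 bases the median deviation was -0.03 in control replicate 1 and 0.03 in control replicate 2 (log2 of FPKM + 1). Among the 2226 genes under 3000 bases it was 0.06 and -0.05. The part of gene length in the members' spread was not tested. Without control replicate 1 the log2 differences of CASP8, APAF1 and XIAP were -0.09, -0.04 and -0.07, each still uncalled.

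**Figure D2:**
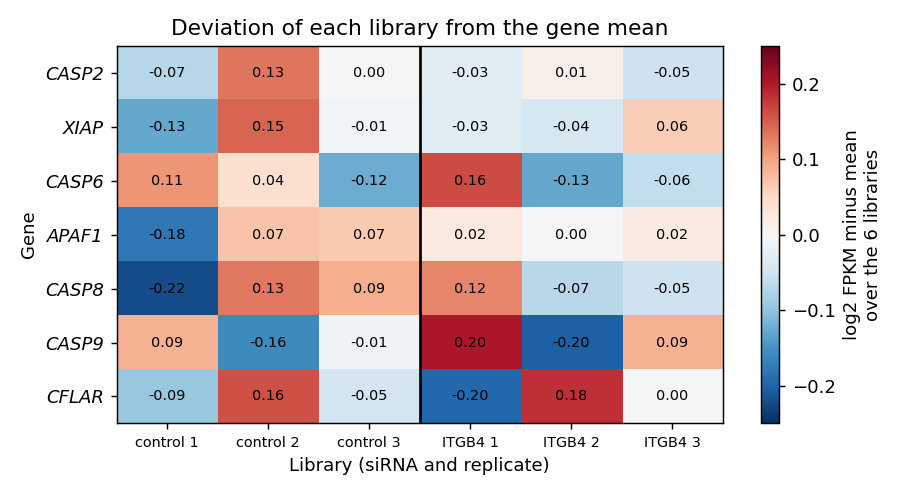
Log2 FPKM of each tested member in each library minus its mean over the 6 libraries; rows are genes by falling level, columns are libraries, and the black line parts control from ITGB4 siRNA. Control replicate 1 is at -0.22 for CASP8 and -0.18 for APAF1, and no row has one sign in all control libraries and the other in all ITGB4 siRNA libraries.

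The protein-coding genes most like CASP2 across the 6 libraries were KIAA0753, STIL and KIN. Likeness was the root-mean-square difference of log2(FPKM + 1) after each gene was centred on its own mean. It was 0.0122 for KIAA0753, 0.0154 for STIL and 0.0167 for KIN, with a median of 0.0983 over 10591 genes. With 6 libraries that share depth and preparation, this ranks profiles and nothing more.

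Levels per kilobase of the deposited gene length are given as means over the 6 libraries. In falling order they were CASP2 (14.2 FPKM), XIAP (11.7), CASP6 (7.82), APAF1 (4.98), CASP8 (4.38), CASP9 (1.64) and CFLAR (1.18). DIABLO came last at 0.273 FPKM as listed, which is not taken as the level of the gene. Each neighbour held its place in 6 of 6 libraries. The ranges over libraries did not overlap between neighbours except for APAF1 (lowest value 4.39 FPKM) and CASP8 (highest value 4.78 FPKM). The deposited length is the union of all exons of a gene, which is 22529 bases for CFLAR and 7243 for CASP8. The principal coding transcript of CASP8 has 1629 bases, 4.45 times fewer, while that of XIAP is 1.05 times shorter than its union.

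Scaled to the principal transcript instead, an alternative chosen after seeing the data, CASP8 moved from the fifth place to the second. The levels were then 26.97, in the unit of FPKM, for CASP2, 19.5 for CASP8, 12.2 for XIAP, 9.82 for CASP6 and 7.235 for APAF1. CASP9 followed at 4.28 and CFLAR at 1.81. DIABLO came out at 1.26 from the reads listed for its longer model. All bases of that transcript are shared with exons of another gene, so this is not taken as the level of DIABLO. All reads of a gene are assigned to a single transcript here, which the files do not show to be their only source. The order between genes therefore depends on the length used.

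**Figure D3:**
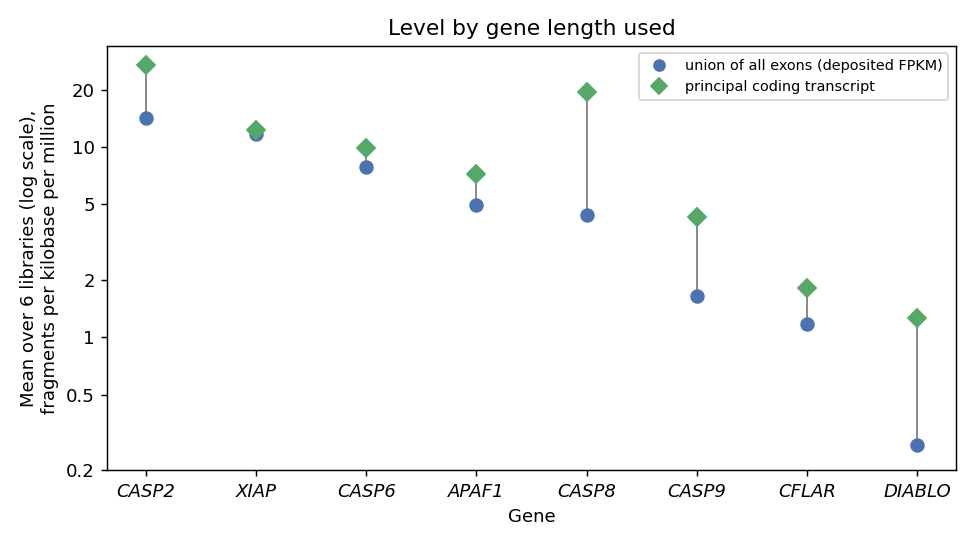
Mean level over 6 libraries on a log scale, per kilobase of the union of all exons (circles, deposited FPKM) and per kilobase of the principal coding transcript (diamonds). CASP8 and DIABLO move most, by 4.45 and 4.61 times, and XIAP least.

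An inhibitor or cofactor was set against its partner within each library, as a ratio of FPKM. The ratio of CFLAR to CASP8 was 0.293, 0.274 and 0.244 with control siRNA and 0.215, 0.320 and 0.278 with ITGB4 siRNA, so the ITGB4 siRNA values spread to both sides of the control values. The mean ratio was 0.270 ± 0.025 and 0.271 ± 0.0529 (SD, n = 3 each). Per principal transcript the ratio of the mean levels was 0.0928, again a matter of length.

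The ratio of XIAP to CASP9 was 6.15, 8.81 and 7.15 with control siRNA and 6.06, 7.97 and 7.01 with ITGB4 siRNA. In each group replicate 1 was lowest and replicate 2 highest. The ratio of APAF1 to CASP9 had the same order, at 2.54, 3.58 and 3.21 and at 2.69, 3.50 and 2.92. The ratio of DIABLO to XIAP was 0.0256 ± 0.00871 and 0.0210 ± 0.00849 (SD, n = 3 each). It rests on few DIABLO reads, listed for a model whose principal transcript shares all its bases with another gene. All 4 ratios had overlapping groups, with log2 differences of -0.01 (CFLAR to CASP8), -0.065 (XIAP to CASP9), -0.31 (DIABLO to XIAP) and -0.03 (APAF1 to CASP9). The exact permutation p-values were 1.0, 0.7, 0.6 and 0.9, and each was 1.0 when adjusted over the 4 ratios.

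Outside the members, 45 further genes of the pathway were described from 6 lists. Of these, 29 were tested, 19 with a log2 difference above 0 and 10 below it. Over all 12871 tested genes 6242 were above 0 and 6629 below it. Limma called 0 of the 29, with 0 at an unadjusted p under 0.05, beside 0.0466% and 5.83% of all tested genes. Limma-voom also called 0, with BIRC2 alone at an unadjusted p under 0.05 (0.0434), beside 0.21% and 5.66%. The lists held 1 tested caspase (-0.04), 3 tested genes of the XIAP family (median 0.04), 10 death receptor genes (0.01), 5 mitochondrial factors (0.02), 1 gene of the CASP2 platform (-0.07) and 9 substrates (0.04). Of the 36 pathway genes with at least 10 reads, limma-voom gave BIRC2, TNFSF10 and CRADD an unadjusted p under 0.05, or 3 genes, where 5.11% of all such genes had one. It called 0 of the 36, beside 0.154% of all such genes.

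CASP4, an inflammatory caspase, was at 1.12 ± 0.20 and 1.06 ± 0.123 FPKM (SD, n = 3 each). CASP1 had at most 2 reads in a library, and CASP5, CASP12 and CASP14 were listed at 0.

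Among the relatives of XIAP, BIRC2 (cIAP1) averaged 6.69 ± 0.486 FPKM with control siRNA and 7.74 ± 0.818 FPKM with ITGB4 siRNA (SD, n = 3 each), a log2 difference of 0.18 (limma adjusted p = 0.92). BIRC5 (survivin), which also works in mitosis, had the highest level of this list, at 47.9 ± 1.93 and 49.2 ± 1.87 FPKM. BIRC6 was at 12.8 ± 1.26 and 11.99 ± 0.351 FPKM. BIRC8, a gene close in sequence to XIAP, was listed at 0 in every library.

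Among the death receptors, TNFRSF10B, a receptor for TRAIL, was at 16.0 ± 0.194 and 15.1 ± 0.379 FPKM (log2 difference -0.08), and TNFRSF10D, a TRAIL decoy receptor, at 23.7 ± 0.807 and 22.5 ± 0.252 FPKM (-0.07; SD, n = 3 each). These were the 2 of 10 tested genes of the list whose groups did not overlap, beside 11.1% of all tested genes. TNFRSF10A, another TRAIL receptor, was at 15.2 ± 0.673 and 13.9 ± 1.33 FPKM (-0.13). The limma adjusted p-values of the 3 receptors were 0.951 to 0.983.

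Cytochrome c (CYCS), which triggers APAF1, was at 56.8 ± 2.37 and 59.6 ± 2.11 FPKM (log2 difference 0.07). AIFM1, a mitochondrial flavoprotein, was at 33.6 ± 1.77 and 35.1 ± 0.75 FPKM (0.06), and HTRA2, a protease that also binds XIAP, at 12.2 ± 1.30 and 11.6 ± 1.06 FPKM (-0.07). XAF1, an antagonist of XIAP, was listed at 0 in every library. PIDD1, of the CASP2 platform, was at 7.09 ± 0.951 and 6.69 ± 0.433 FPKM (-0.07). Of the caspase substrates, PARP1 was at 44.3 ± 1.04 and 42.8 ± 0.509 FPKM (-0.05), LMNB1 at 79.5 ± 1.18 and 81.9 ± 2.38 FPKM (0.04) and PAK2 at 29.7 ± 2.52 and 31.2 ± 1.08 FPKM (0.07; SD, n = 3 each). Limma gave each of these genes, other than the untested XAF1, an adjusted p of 0.998.

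**Figure D4:**
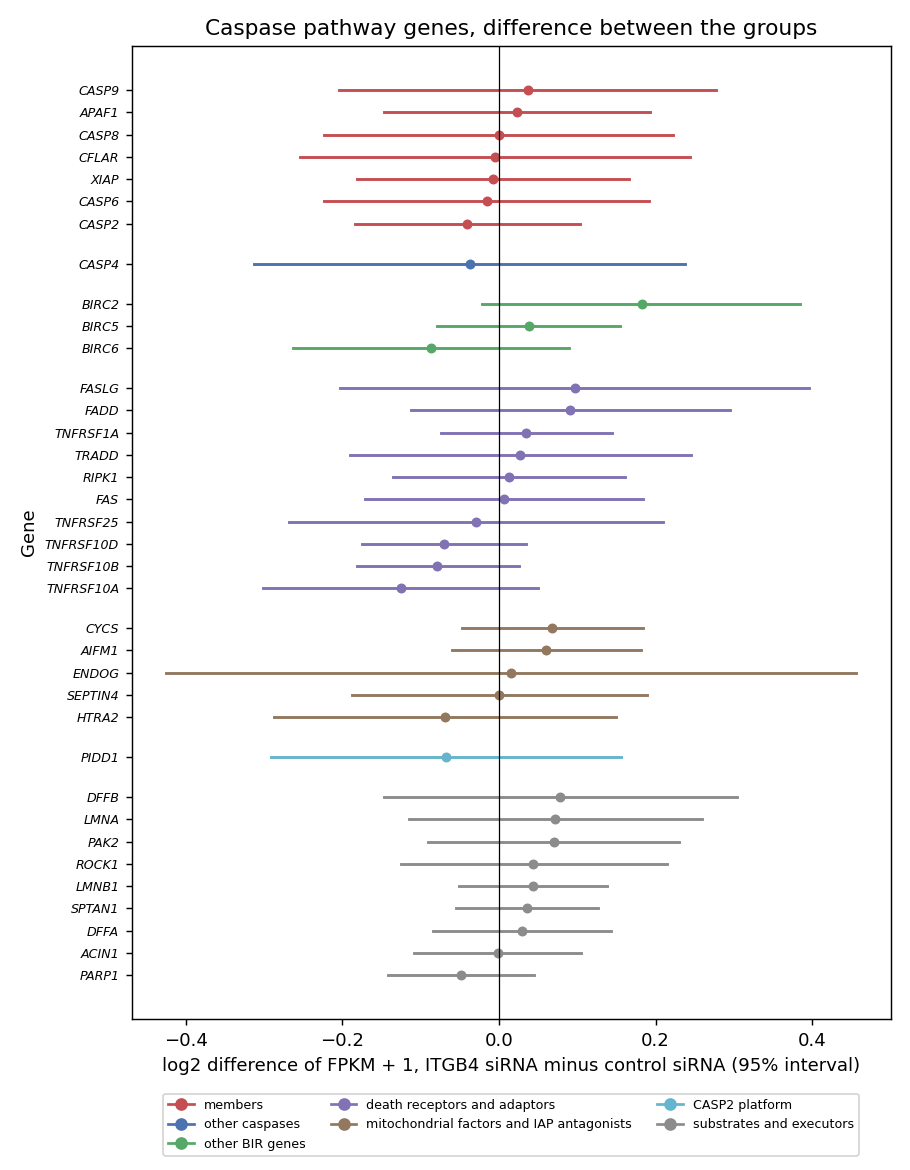
Log2 difference of FPKM + 1 (ITGB4 siRNA minus control siRNA, points) with its 95% interval (lines) for the 7 tested members and 29 further tested genes, coloured by list. All 36 intervals drawn cross 0.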

How the data were processed

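The authors deposited FPKM per gene for 6 SW480 libraries on GRCh38, with the gene length used and group means, which were not used. Poly-T beads captured the RNA, per the labels' protocols. DESeq2 and edgeR are named in the submitters' processing notes without a role, and the aligner and counting tool are not given in the sources used here. All 58735 genes matched GENCODE release 29 in start, end and union of exons. FPKM times length gave whole multiples of 1 read for 100% of values (tolerance 0.01), so reads were recovered.

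Limma 3.58.1 was run on log2(FPKM + 1) values (trend, two-sided, no replicate term, R 4.3.3) over 12871 genes with a mean of at least 1 FPKM, with Benjamini-Hochberg adjustment over all of them. Limma-voom used the recovered reads. Exact permutation tests used scipy 1.17.1. The fits were also run on simulated reads with the same spread setting for all genes, and the outcome is not reported here. Members and lists were chosen with earlier results of these data known. Named were all members, ITGB4, the 3 genes of each list with the smallest p and the 3 most like the leading member; others are marked. Some pathway genes are not reported here. The SEPTIN4 row, whose symbol is deposited as a date, was matched by gene ID. Alternatives are in the closing section. The series calls the replicates biological and says no more. The p-values therefore weigh a difference only against the spread between these samples, which may be technical.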

Additional observations from a re-analysis of the deposited data

How the results depend on the processing

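No alternative called any of the 7 tested members, and their adjusted p-values were at least 0.644 throughout. Differences this close to 0 changed sign: CASP8 was at 0.00054 with a pseudocount of 0.1, 0.00486 as TPM and 0.000179 with median-of-ratios rescaling. DIABLO, too low for the main test, was at -0.065 with the pseudocount of 1 FPKM and at -0.225 with 0.1. At its mean of 0.273 FPKM the larger pseudocount compresses the difference and its range below, and limma-voom gave -0.294. When leaving out 1 library, log2 differences ran from -0.084 to 0.012 (CASP2), -0.092 to 0.0367 (CASP6), -0.09 to 0.0527 (CASP8), -0.018 to 0.108 (CASP9), -0.0449 to 0.0582 (APAF1), -0.068 to 0.0572 (XIAP) and -0.057 to 0.046 (CFLAR). Ratios ran from -0.142 to 0.145 (CFLAR to CASP8), -0.188 to 0.072 (XIAP to CASP9), -0.588 to 0.04 (DIABLO to XIAP) and -0.167 to 0.081 (APAF1 to CASP9). CASP4 ran from -0.105 to 0.031, HTRA2 from -0.132 to 0.00712, PIDD1 from -0.151 to 0.018, DIABLO from -0.134 to -0.002, PAK2 from 0.00887 to 0.128, AIFM1 from 0.0298 to 0.101, CYCS from 0.0426 to 0.101, TNFRSF10A from -0.194 to -0.0683, BIRC5 from 0.00694 to 0.0699, BIRC6 from -0.16 to -0.029, and LMNB1 from 0.028 to 0.067.

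ITGB4 stayed below 0, from -0.869 to -0.76 when leaving out 1 library. It lost the call at -0.811 with no filter on low values (limma adjusted p = 0.0618) and with the replicate block (0.0564). Limma-voom on the recovered reads called ITGB4 at -0.827 (adjusted p = 1.03e-05). Limma called 0 genes, 0 higher and 0 lower, with no filter (1356 at an unadjusted p under 0.05) and with the replicate block (1064). Limma-voom called 27, 12 higher and 15 lower, and leaving out 1 library 0 to 7, with 0 to 4 higher and 0 to 4 lower. The 0 came without ITGB4 siRNA replicate 1, 2 or 3 (604, 545 and 581 at an unadjusted p under 0.05). The replicate numbers were not taken as pairs, since the labels do not say that a number marks a shared batch. Same-numbered deviations correlated at 0.173, 0.102 and -0.01, and differently numbered ones at -0.174 to 0.0862. These values do not settle whether the numbers mark pairs. Counting alone gives a coefficient of variation of 2.42% (CASP2) to 8.82% (CASP9) in the tested members and 19.0% in DIABLO, whose observed values were 36.9% and 39.6%.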

Other observations

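Several pathway genes were too low for the main test, and those named here were chosen after their values were seen. CRADD, the adaptor that joins PIDD1 to CASP2, was at 0.522, 0.489 and 0.368 FPKM with control siRNA and at 0.709, 0.888 and 0.691 FPKM with ITGB4 siRNA, from 24 to 58 reads per library. The groups did not overlap, and limma-voom over genes with at least 10 reads gave a log2 difference of 0.73 (unadjusted p = 0.00812, adjusted p = 0.749). TNFSF10, the ligand TRAIL, was at 0.778, 0.874 and 0.888 FPKM and at 0.748, 0.490 and 0.536 FPKM (-0.54, unadjusted p = 0.0409, adjusted p = 0.953). BIRC3 (cIAP2) was at 0.261, 0.341 and 0.323 FPKM and at 0.221, 0.244 and 0.231 FPKM, again without overlap (-0.40, adjusted p = 0.984). Of the 36 pathway genes with at least 10 reads, 7 had groups that did not overlap, 3 higher and 4 lower with ITGB4 siRNA, or 19.4%, beside 10.7% of all 21434 such genes.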
